A study of Mus musculus with 36 samples.

Results

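The 6 genes described here encode the cytosolic enzymes that supply NADPH in mouse kidney, together with the pentose phosphate enzymes linked to them. They are Pgls and Pgd of the oxidative branch of the pentose phosphate pathway, Tkt and Taldo1 of its non-oxidative branch, and the NADP-dependent dehydrogenases Me1 and Idh1. They were taken by symbol from 55536 annotated genes, by the function of their products and with earlier results of these data known. All 6 passed the filter on low counts that left 18180 genes for testing.

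The series asks how the kidney responds to cadmium accumulation in obese ob/ob mice (ob) and in normal C57BL/6 mice (b6j). The labels give the strain C57BL/6 for every group, so ob differs from b6j by the ob/ob genotype as far as they say, and every cell of an ob mouse carries it. Kidney RNA was sequenced from 6 groups of 6 libraries: ob without CdCl2, ob at 0.5 mg/kg, ob at 2 mg/kg, b6j without CdCl2, b6j at 0.5 mg/kg and b6j at 2 mg/kg. The labels give neither route, duration, age nor sex, and they number the libraries as replicates without naming the animal behind each. The p-values therefore measure the spread between libraries, which may in part be technical.

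The oxidative branch of the pentose phosphate pathway burns glucose 6-phosphate to ribulose 5-phosphate and makes NADPH. The non-oxidative branch passes carbon between pentose phosphates and glycolysis. NADPH keeps glutathione and thioredoxin reduced and feeds fatty acid synthesis. Cadmium, which collects in the proximal tubule of the kidney, binds thiols and is buffered by metallothionein and glutathione. In mice several of these genes are known targets of the transcription factor NRF2, which binds the antioxidant response element, and Me1 is also a lipogenic gene.

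Promoter sequences of 3 members that moved with CdCl2 are shown because that motif can be looked for in them. They come from the RefSeq annotation of GRCm38.p6 and run from 250 bases before to 50 bases after an annotated start, 5′ to 3′ on the strand of the gene. Capitals mark a match to the antioxidant response element TGACNNNGC on either strand.
Pgd, inner of 2 annotated starts, chr4:149166033-149166332, minus strand: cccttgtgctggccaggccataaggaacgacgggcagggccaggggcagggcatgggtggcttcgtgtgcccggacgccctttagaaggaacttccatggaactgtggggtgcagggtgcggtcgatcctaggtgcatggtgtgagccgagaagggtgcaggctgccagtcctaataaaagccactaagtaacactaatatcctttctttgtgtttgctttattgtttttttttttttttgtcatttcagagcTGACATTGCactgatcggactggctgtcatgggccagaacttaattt
Me1, outermost of 2 annotated starts, chr9:86695865-86696164, minus strand: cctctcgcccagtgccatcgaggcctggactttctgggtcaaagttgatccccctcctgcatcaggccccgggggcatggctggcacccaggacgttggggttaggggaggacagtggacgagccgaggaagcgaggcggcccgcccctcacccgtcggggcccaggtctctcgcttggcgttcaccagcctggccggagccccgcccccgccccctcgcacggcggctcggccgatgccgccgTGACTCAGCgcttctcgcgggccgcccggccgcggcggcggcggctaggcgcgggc
Tkt, chr14:30548881-30549180, plus strand: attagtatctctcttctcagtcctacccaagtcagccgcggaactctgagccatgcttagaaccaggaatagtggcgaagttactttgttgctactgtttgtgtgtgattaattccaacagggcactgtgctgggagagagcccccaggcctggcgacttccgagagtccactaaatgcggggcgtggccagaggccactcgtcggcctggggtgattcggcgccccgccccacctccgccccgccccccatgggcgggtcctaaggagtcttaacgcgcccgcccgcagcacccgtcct
All 6 members had an entry in that table. The element was found in 2 of them: at position 4 of the inner Pgd start as TGACATTGC, and at position -6 of Me1 as TGACTCAGC. Of all genes listed there, 14% held it in at least 1 window, and so did 12.4% of all windows. The core of the metal response element, TGCACNC or TGCGCNC on either strand, was found in 1 member, at the inner Pgd start, against 28.2% of all genes. The window at the outermost Pgd start, chr4:149166656-149166955, held 0 matches to either element. The inner Pgd window, where both were found, lies inside the gene, whose annotated 5′ end is at 149166771. The TGACATTGC match there begins after the inner start, in transcribed sequence and not upstream of it. No such letters stood in these windows of Tkt, Taldo1, Pgls and Idh1. The single Tkt window also lies inside its gene, whose annotated 5′ end is at 30548359.

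The libraries held 26783936 to 37244058 counted reads, and 3 counts were worth 0.0805 to 0.112 CPM, a read count scaled to the size of its library. The markers of kidney tubules were present, with all 12 proximal tubule genes and all 10 genes of the loop and distal nephron above that floor in each group. Exposure showed in Mt1, which encodes a metallothionein and averaged 111 ± 21.2, 2823 ± 408 and 4424 ± 518 CPM in ob at 0, 0.5 and 2 mg/kg, and 116 ± 17.3, 1369 ± 253 and 3073 ± 582 CPM in b6j (SD, n = 6). Transcripts of Lep, the gene mutated in ob/ob mice, lay between 0.0591 and 7.93 CPM in ob controls, and in b6j controls between 0 and 0.188 CPM. Above every b6j control stood 5 of 6 ob controls. The library that stood farthest apart was replicate 5 of ob at 2 mg/kg. Its summed proximal tubule markers came to 2208 CPM, where the median of its group was 14499, and its summed tubular injury markers came to 2477 CPM, where the median was 227. Results of the 6 genes that rest on replicate 5 are given with and without it, and those of other genes in part. In b6j controls the highest summed injury markers, 197 CPM, also stood far from the median of 18.3 CPM.

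**Figure D1:**
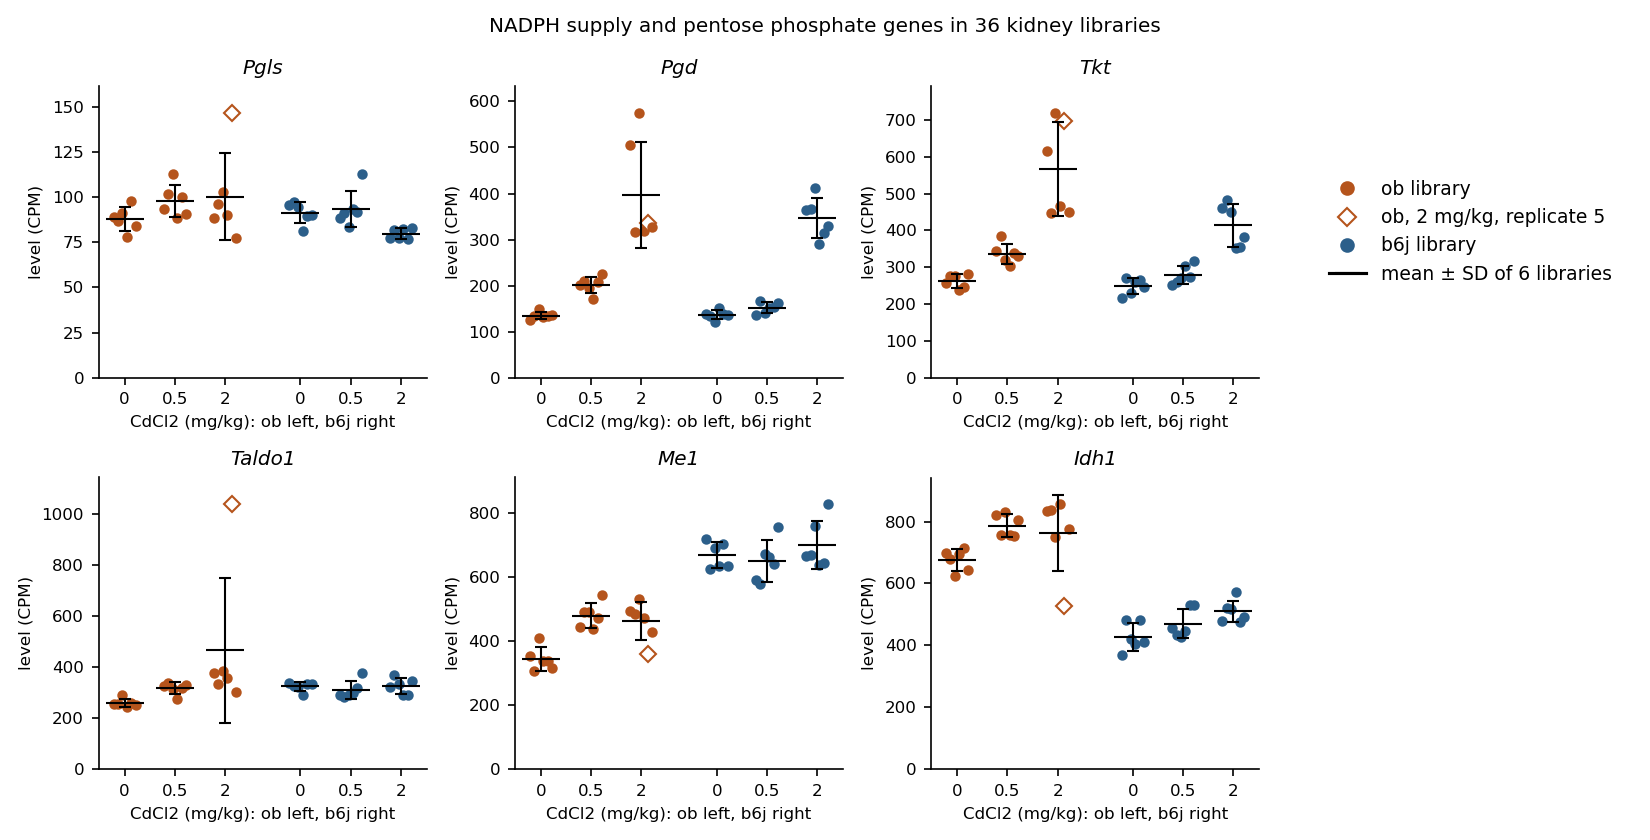
Level of each of the 6 genes in CPM (linear axis from 0) in every library, ob on the left and b6j on the right of each panel, with the dose of CdCl2 in mg/kg. Points are libraries, bars are the mean ± SD of 6, and the open diamond is replicate 5 of ob at 2 mg/kg, which is the highest of its group for Pgls and Taldo1 and the lowest for Me1 and Idh1.

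Per kilobase of exon, Idh1, Taldo1 and Me1 were the most abundant of the 6 transcripts in both genotypes. In ob controls Idh1 averaged 244 ± 12.7 CPM per kb, Taldo1 120 ± 7.35 and Me1 89.0 ± 9.59, followed by Tkt at 35.7 ± 2.44, Pgls at 23.3 ± 1.81 and Pgd at 20.9 ± 1.18. In b6j controls Me1 averaged 173 ± 10.6 CPM per kb, Idh1 155 ± 16.2, Taldo1 149 ± 8.2, Tkt 33.8 ± 2.92, Pgls 24.2 ± 1.55 and Pgd 21.2 ± 1.54. The step from Idh1 to Taldo1 in b6j controls was smaller than the spread of Idh1, while Idh1 stood far above the other 5 in ob controls. In the controls of both genotypes Pgd had the lowest mean level per length. With CdCl2 Pgls was the lowest in ob at 0.5 mg/kg, at 26.0 ± 2.41 CPM per kb where Pgd averaged 31.2 ± 2.81, and in ob at 2 mg/kg, at 26.6 ± 6.41 where Pgd averaged 61.5 ± 17.7. The same order held in b6j at 2 mg/kg, with Pgls at 21.2 ± 0.772 CPM per kb and Pgd at 53.7 ± 6.76. Of the Pgls exon bases 20.6% are shared with Fam129c, and reads there may be left uncounted while the length includes these bases. The level of Pgls per kb may therefore be too low, and its order against Pgd in ob at 0.5 mg/kg is not settled.

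At 2 mg/kg CdCl2 the largest changes among the 6 genes were those of Pgd and Tkt, in both genotypes. Every change below with an error is a log2 ratio ± SE, and every adjusted p comes from edgeR unless another tool is named. Pgd rose 2.95-fold in ob and 2.53-fold in b6j, and Tkt rose 2.16-fold in ob and 1.67-fold in b6j. Taldo1 and Me1 were also called in ob, at 1.79-fold and 1.35-fold, and were not called in b6j. Whether the genotypes differed in their responses was a separate test, given with each gene. In ob 4 of 6 members rose at 2 mg/kg and 0 fell, where 38.4% of all tested genes were called and 20.4% were called higher. In b6j 3 of 6 rose, Pgd, Tkt and Idh1, where 23.7% were called and 12.3% were called higher. The median log2 change of the 6 was 0.64 in ob and 0.16 in b6j, against 0.011 and 0.017 over all genes. In whole kidney, fewer cells of a type and less RNA per cell cannot be told apart.

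At 0.5 mg/kg Pgd, Tkt and Me1 rose in ob (3 of 6), where 4.28% of all genes were called and 3.55% were called higher. Without replicate 5 of ob at 2 mg/kg in the shared fit 9.68% of all genes and 5 of 6 members were called there. In b6j 0 of 6 passed the test at this dose, where 0.325% of all genes were called (0.854% without that library). There 0 of 6 had an unadjusted p below 0.05 in edgeR, and DESeq2 and limma-voom also called 0. The doses were also set against each other. Between 2 and 0.5 mg/kg 3 of 6 were higher in ob (29.7% of all genes called, 15.2% higher) and 2 of 6 were higher in b6j (17.3% called, 8.78% higher; 28.7% called without that library). For the difference of responses at 2 mg/kg, ob minus b6j, edgeR called 0 of 6 members, where 2.07% of all genes were called (4.12%, and 2 of 6 members, without that library). There 4 of 6 had an unadjusted p below 0.05, and DESeq2 and limma-voom called 2 each. Of all genes limma-voom called 1075 in that comparison, against 376 with edgeR.

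**Figure D2:**
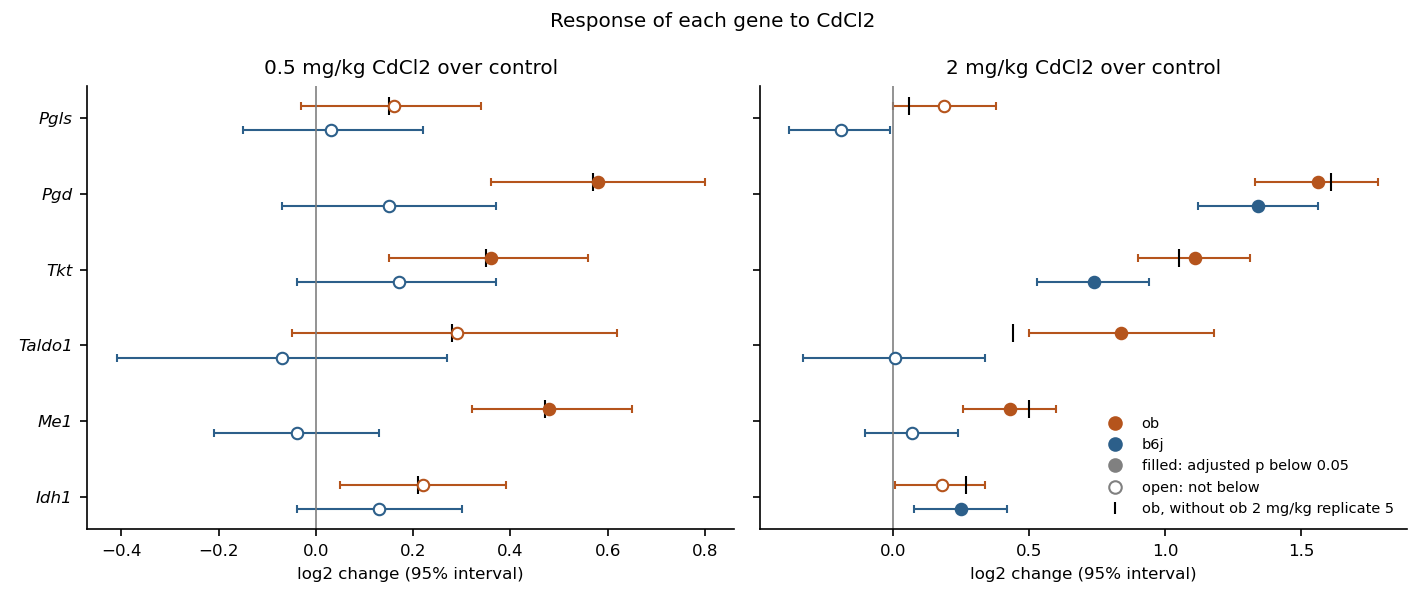
Log2 change of each gene at 0.5 mg/kg (left) and 2 mg/kg (right) over the control of its own genotype, with 95% intervals; ob is drawn above b6j, filled points passed an adjusted p of 0.05, and black ticks give the ob value without replicate 5 of ob at 2 mg/kg. Pgd and Tkt lie to the right of 0 in both genotypes at 2 mg/kg, while Taldo1 lies at 0.84 in ob and 0.01 in b6j.

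Pgls (ENSMUSG00000031807, 8:71592176-71601092 on the plus strand of GRCm38) encodes 6-phosphogluconolactonase, which opens the lactone ring of 6-phosphogluconolactone. In ob its lowest, median and highest libraries had 77.9, 88.0 and 98.1 CPM without CdCl2, 88.4, 96.7 and 113 CPM at 0.5 mg/kg, and 77.4, 93.3 and 147 CPM at 2 mg/kg. The b6j libraries had 81.2, 92.4 and 97.2 CPM, 83.4, 91.3 and 113 CPM, and 76.8, 79.8 and 83.0 CPM at the same doses. Pgls was the only member with no call in any of the 4 comparisons of a dose with its control. In b6j 3 of 6 libraries at 2 mg/kg lay below every control, and all 6 lay below every library at 0.5 mg/kg. Its log2 change at 2 mg/kg was 0.19 ± 0.10 in ob (adjusted p = 0.115) and -0.19 ± 0.10 in b6j (adjusted p = 0.144). Without replicate 5 of ob at 2 mg/kg it was 0.06 in ob and -0.20 in b6j, where it then passed the test (adjusted p = 0.0183), as it did with limma-voom (0.00481) and with the compared groups fitted alone (0.00912). Of its exon bases 20.6% are shared with Fam129c.

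Pgd (ENSMUSG00000028961, 4:149149991-149166771 on the minus strand) encodes 6-phosphogluconate dehydrogenase, which makes NADPH in the oxidative branch. The lowest, median and highest ob libraries had 125, 134 and 148 CPM without CdCl2, 171, 204 and 225 CPM at 0.5 mg/kg, and 316, 332 and 576 CPM at 2 mg/kg. The b6j libraries had 121, 136 and 152 CPM, 135, 152 and 166 CPM, and 290, 347 and 411 CPM. The 3 doses did not overlap in ob, whereas in b6j the 2 lower doses overlapped and the highest stood apart. Pgd rose by 0.58 ± 0.11 at 0.5 mg/kg in ob (log2; adjusted p = 0.000819) and by 1.56 ± 0.11 at 2 mg/kg (adjusted p = 6.68e-13). In b6j it rose by 1.34 ± 0.11 at 2 mg/kg (adjusted p = 3.74e-11), while the change at 0.5 mg/kg was 0.15 ± 0.11 (adjusted p = 1).

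The 6 ob libraries at 2 mg/kg were spread for Pgd, with replicates 1 and 3 at 506 and 576 CPM and the other 4 between 316 and 335 CPM. At 0.5 mg/kg all 6 ob libraries stood above every b6j library, a log2 difference of 0.41 ± 0.11 (adjusted p = 0.0144). At 2 mg/kg the difference was 0.20 ± 0.11 (adjusted p = 0.234). The test of the responses gave a difference of 0.43 at 0.5 mg/kg (95% interval 0.12 to 0.74; adjusted p = 0.379) and of 0.22 at 2 mg/kg (-0.09 to 0.53; adjusted p = 0.505). At 0.5 mg/kg the difference passed the test with limma-voom (0.44; adjusted p = 0.047) and with the compared groups fitted alone (0.42; adjusted p = 0.0081).

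Tkt (ENSMUSG00000021957, 14:30548359-30574720 on the plus strand) encodes transketolase, which moves 2-carbon units between sugar phosphates. Lowest, median and highest values in ob were 237, 266 and 282 CPM without CdCl2, 303, 334 and 384 CPM at 0.5 mg/kg, and 448, 540 and 720 CPM at 2 mg/kg. Those in b6j were 216, 253 and 271 CPM, 252, 272 and 316 CPM, and 351, 416 and 483 CPM. As with Pgd, the doses did not overlap in ob, and in b6j the highest dose stood above both others. Tkt rose by 1.11 ± 0.11 in ob at 2 mg/kg (adjusted p = 3.47e-10) and by 0.74 ± 0.10 in b6j (adjusted p = 1.98e-06). Its rise of 0.36 ± 0.10 in ob at 0.5 mg/kg (adjusted p = 0.0417) was near the threshold and was lost when any of 14 single libraries was left out. The responses differed by 0.37 at 2 mg/kg (95% interval 0.08 to 0.66; adjusted p = 0.181). The paralogs Tktl1 and Tktl2 had 44 and 6 reads in all libraries.

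Taldo1 (ENSMUSG00000025503, 7:141392199-141402968 on the plus strand) encodes transaldolase, the other carbon-shuffling enzyme of that branch. The lowest, median and highest ob libraries had 243, 257 and 290 CPM without CdCl2, 273, 322 and 338 CPM at 0.5 mg/kg, and 303, 366 and 1039 CPM at 2 mg/kg. The b6j libraries had 290, 329 and 338 CPM, 282, 294 and 377 CPM, and 290, 328 and 367 CPM. The value of 1039 CPM came from replicate 5, and the other 5 libraries lay between 303 and 383 CPM. All 6 ob libraries at 2 mg/kg exceeded every ob control, and the b6j groups overlapped.

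The rise of Taldo1 in ob at 2 mg/kg was 0.84 ± 0.17 (adjusted p = 0.000223) with all libraries and 0.44 without replicate 5 (adjusted p = 5.69e-06). In b6j the change was 0.01, with a 95% interval from -0.33 to 0.34. The difference of responses at 2 mg/kg was 0.83 ± 0.24 (adjusted p = 0.065), and it passed the test at 0.44 without replicate 5 (adjusted p = 0.00684) and when any of 3 other libraries of that group was left out. It also passed with DESeq2 (0.87; adjusted p = 0.0201) and with limma-voom (0.47; adjusted p = 0.00154). The same library decided other Taldo1 calls. Without it the gene was called higher in ob at 0.5 mg/kg (0.28; adjusted p = 0.00631) and was no longer called between the doses in ob (0.16 against 0.56 with it; adjusted p = 0.0891 against 0.0145).

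Me1 (ENSMUSG00000032418, 9:86581371-86695953 on the minus strand) encodes cytosolic malic enzyme, which makes NADPH while turning malate to pyruvate. Lowest, median and highest values in ob were 306, 337 and 409 CPM without CdCl2, 437, 481 and 542 CPM at 0.5 mg/kg, and 360, 478 and 532 CPM at 2 mg/kg. Those in b6j were 623, 663 and 717 CPM, 576, 651 and 756 CPM, and 636, 667 and 827 CPM. The highest of the 18 ob libraries, at 542 CPM, lay below the lowest of the 18 b6j libraries, at 576 CPM. Among ob libraries the step came at the lower dose: all 6 at 0.5 mg/kg stood above every control, and 2 and 0.5 mg/kg overlapped. The rise was 0.48 ± 0.09 at 0.5 mg/kg (adjusted p = 0.000252) and 0.43 ± 0.09 at 2 mg/kg (adjusted p = 0.00014), and the difference between the doses was -0.05 (95% interval -0.22 to 0.11).

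In b6j the log2 change of Me1 was -0.04 ± 0.09 at 0.5 mg/kg and 0.07 ± 0.09 at 2 mg/kg, neither of them called (adjusted p = 1 and 0.619). The responses at 0.5 mg/kg differed by 0.52 ± 0.12 (adjusted p = 0.0368), the single member called in a comparison that called 0.385% of all genes (1.38% without replicate 5 of ob at 2 mg/kg). That call was lost when any of 20 single libraries was left out, while the value stayed between 0.48 and 0.58. At 2 mg/kg the responses differed by 0.36 ± 0.12 (adjusted p = 0.109), and by 0.44 without replicate 5 (adjusted p = 0.0122), which was the lowest ob library at that dose with 360 CPM. The difference at 2 mg/kg also passed with DESeq2 (0.39; adjusted p = 0.037) and with limma-voom (0.46; adjusted p = 0.0032).

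Idh1 (ENSMUSG00000025950, 1:65158616-65186500 on the minus strand) encodes cytosolic isocitrate dehydrogenase, which makes NADPH from isocitrate. In ob its lowest, median and highest libraries had 625, 687 and 716 CPM without CdCl2, 754, 781 and 831 CPM at 0.5 mg/kg, and 528, 805 and 857 CPM at 2 mg/kg. In b6j they had 368, 416 and 482 CPM, 426, 451 and 529 CPM, and 476, 505 and 571 CPM. Every ob library except replicate 5 at 2 mg/kg stood above every b6j library. Changes with CdCl2 were small. In b6j Idh1 rose by 0.25 ± 0.09 at 2 mg/kg (adjusted p = 0.0303), a call that was lost when any of 7 single libraries was left out. In ob the change was 0.22 ± 0.09 at 0.5 mg/kg (adjusted p = 0.168), with all 6 libraries above every control, and 0.18 ± 0.09 at 2 mg/kg (adjusted p = 0.104). Without replicate 5 of ob at 2 mg/kg both passed the test, at 0.21 (adjusted p = 0.0263) and 0.27 (adjusted p = 0.00122).

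Before any cadmium the genotypes differed in Me1 and Idh1, in opposite directions. Me1 was lower in ob controls by 0.96 ± 0.09 on the log2 scale (-0.96; adjusted p = 3.11e-10), a level 0.514 times that of b6j controls. Idh1 was higher in ob controls by 0.66 ± 0.09 (adjusted p = 7.23e-07), or 1.58-fold. These were 2 of 6 members, where 15.5% of all genes were called (26% without replicate 5 of ob at 2 mg/kg). Of the pathway enzymes, Pgd (-0.02, 95% interval -0.24 to 0.20), Pgls (-0.06, -0.24 to 0.13) and Tkt (0.08, -0.12 to 0.28) did not pass the test. Taldo1 had a log2 difference of -0.32 ± 0.17 (adjusted p = 0.232), with 5 of 6 ob controls below every b6j control, and it passed at the same value without replicate 5 of ob at 2 mg/kg (adjusted p = 0.000446). In the same libraries the summed proximal tubule markers ran from 23302 to 33046 CPM in ob controls, against 40857 to 52362 CPM in b6j controls, with 2 of 12 markers called lower and 0 higher. Summed glomerular and endothelial markers ran from 553 to 616 CPM in ob controls, against 325 to 432 CPM in b6j controls, with 6 of 7 called higher and 0 lower. The part of both shifts in the Me1 and Idh1 differences was not tested.

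The Me1 and Idh1 differences were also called at both doses. Me1 differed by -0.44 ± 0.09 at 0.5 mg/kg (adjusted p = 0.000544) and by -0.60 ± 0.09 at 2 mg/kg (adjusted p = 6.16e-06). Idh1 differed by 0.75 ± 0.09 (adjusted p = 1.25e-07) and by 0.58 ± 0.09 (adjusted p = 1.04e-05). With Pgd, 3 of 6 members were called between genotypes at 0.5 mg/kg, where 9.64% of all genes were called (19.2% without replicate 5 of ob at 2 mg/kg). At 2 mg/kg 5 of 6 were called, 4 of them higher in ob, where 16.4% of all genes were called. Besides Me1 and Idh1 these were Tkt (0.45 ± 0.10; adjusted p = 0.00276), Taldo1 (0.52 ± 0.17; adjusted p = 0.0365) and Pgls (0.33 ± 0.10; adjusted p = 0.0159). Above every b6j library stood 5 of 6 ob libraries for Pgls, and 3 of 6 for Tkt and for Taldo1. Without replicate 5 the differences were 0.39 for Tkt, 0.20 for Pgls (adjusted p = 0.0498) and 0.12 for Taldo1, which was no longer called (adjusted p = 0.302). The Taldo1 call was lost when any of 5 single libraries was left out. With the compared groups fitted alone, 2 members were called at this dose, Me1 and Idh1. That fit called 461 of all genes, against 2987 in the fit of all 36 libraries.

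**Figure D3:**
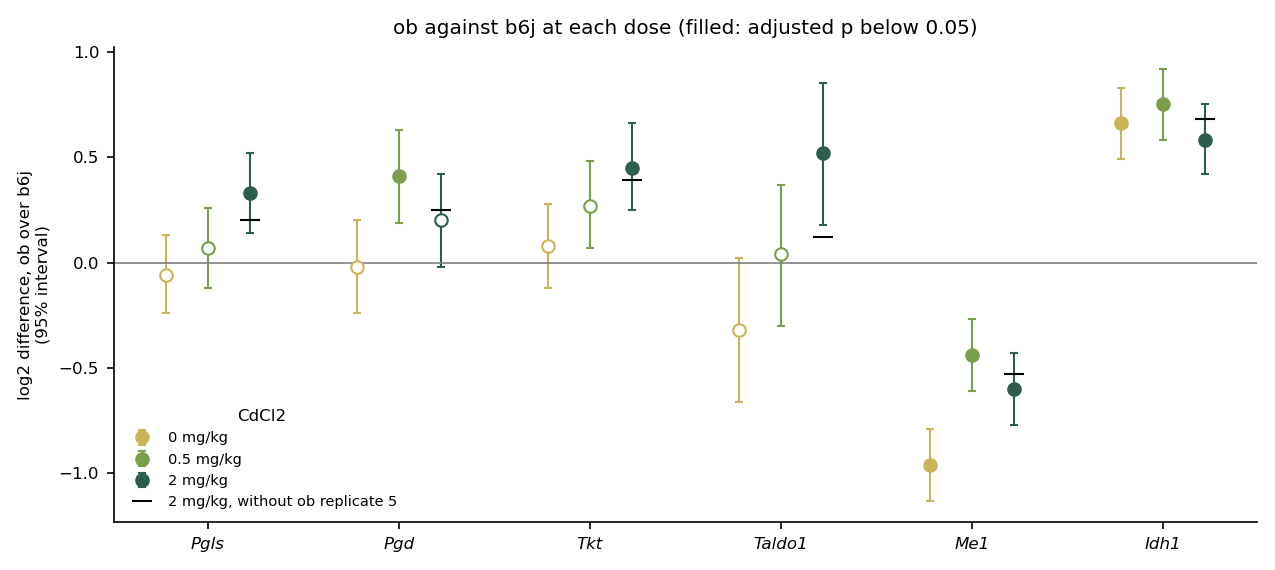
Log2 difference of ob over b6j for each gene at 0, 0.5 and 2 mg/kg CdCl2, with 95% intervals; filled points passed an adjusted p of 0.05, and black dashes give the value at 2 mg/kg without replicate 5 of ob. Me1 lies below 0 and Idh1 above 0 at each dose, and the value of Taldo1 at 2 mg/kg drops to 0.12 without that library.

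Markers of kidney cells moved with the higher dose. Summed proximal tubule markers lay between 2208 and 21171 CPM in ob at 2 mg/kg against 23302 to 33046 CPM in ob controls. The b6j sums lay between 22586 and 33054 CPM at 2 mg/kg against 40857 to 52362 CPM in b6j controls. Of these 12 markers 6 were called lower in ob and 2 in b6j, and 0 were called higher. Without replicate 5 of ob at 2 mg/kg 7 and 10 were called lower. Of all genes 18% were called lower and 20.4% higher in ob at this dose, and 11.4% and 12.3% in b6j. Without that library 38% of all genes were called in ob and 34.8% in b6j, in either direction. The same shares stand beside the counts of the other lists at 2 mg/kg below. Summed tubular injury markers were 114 to 2477 CPM in ob at 2 mg/kg against 16.7 to 22.4 CPM in ob controls. The b6j sums were 150 to 285 CPM at 2 mg/kg against 13.9 to 197 CPM in b6j controls, whose median was 18.3 CPM. Summed leukocyte markers were 103 to 410 CPM in ob at 2 mg/kg against 136 to 158 CPM in ob controls; the b6j sums were 175 to 255 CPM at 2 mg/kg against 145 to 178 CPM in b6j controls. Summed glomerular and endothelial markers were 254 to 408 CPM in ob at 2 mg/kg against 553 to 616 CPM in ob controls, with 7 of 7 called lower (5 without replicate 5). In b6j 0 of these 7 were called, with sums of 326 to 402 CPM at 2 mg/kg against 325 to 432 CPM in controls (1 called lower without that library). Of 10 loop and distal nephron markers 8 were called lower in ob and 4 in b6j. Their sums were 1296 to 4751 CPM in ob at 2 mg/kg against 5617 to 6483 CPM in ob controls. The b6j sums were 4487 to 6426 CPM at 2 mg/kg against 5088 to 5963 CPM in b6j controls. In ob at 2 mg/kg replicate 5 alone gave the highest injury sum and the lowest proximal tubule, leukocyte, glomerular and endothelial, and loop and distal sums. The medians of that group were 227, 14499, 241, 378 and 4472 CPM in this order. Of 5 cell cycle markers 4 were called higher in ob and 5 in b6j. The part of these shifts in the changes of the 6 genes was not tested.

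At 0.5 mg/kg in ob, where Pgd, Tkt and Me1 rose, 0 of the 12 proximal tubule markers were called in either direction (0 at an unadjusted p below 0.05 in edgeR, 0 called by DESeq2 or limma-voom). Their sum ran from 25283 to 32952 CPM. Of all genes 4.28% were called in this comparison. Glomerular and endothelial sums were 481 to 529 CPM in ob at 0.5 mg/kg against 553 to 616 CPM in ob controls, and 1 of 7 was called lower (2 by DESeq2, 3 by limma-voom). Tubular injury sums were 26.8 to 54.1 CPM in ob at 0.5 mg/kg against 16.7 to 22.4 CPM in ob controls, and 1 of 5 was called higher. Their part in the rises of Pgd, Tkt and Me1 was not tested.

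The profiles of the 6 genes over the 6 groups were compared as centred log2 CPM, by the root mean square difference. Among the members Pgls and Taldo1 were the closest pair (0.185) and Me1 and Pgd the farthest (0.678). Tkt lay 0.243 from Pgd and 0.271 from Taldo1. Among 11025 other genes that averaged 5 CPM or more over the libraries, those nearest to Pgd were Gbe1 (0.082), Rrm2 (0.099) and Gstm4 (0.104), and those nearest to Tkt were Junb (0.039), Pfkfb4 (0.048) and Jun (0.048). Taldo1 lay nearest to Mfsd13a (0.047), Acot2 (0.048) and Atg4a (0.048). Nearest to Me1 were Ttyh2 (0.067), Slc7a4 (0.104) and Fads3 (0.107), and nearest to Idh1 were Sipa1l2 (0.079), Jam3 (0.086) and Uchl1 (0.093). Without replicate 5 of ob at 2 mg/kg, an alternative chosen after seeing the data, Pgls and Taldo1 lay 0.155 apart and were again the closest pair, and Idh1 and Me1 were the farthest (0.679). Of the 3 nearest genes 2 were shared with those above for Pgd and for Me1, 1 for Tkt and for Idh1, and 0 for Taldo1, from which Mfsd13a, Acot2 and Atg4a then lay 0.046, 0.072 and 0.096. With 6 groups as points these are descriptions of likeness.

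Other genes of the pentose phosphate pathway and of ribose handling moved in part with the members at 2 mg/kg. Of 10 tested, 5 rose and 2 fell in ob, with a median log2 change of 0.16, and 4 rose and 1 fell in b6j, with a median of 0.07. Rpia, which encodes ribose-5-phosphate isomerase and joins the branches, had the largest change of the 10. It averaged 26.3 ± 0.997, 47.4 ± 3.33 and 50.9 ± 7.76 CPM in ob at 0, 0.5 and 2 mg/kg, and 21.9 ± 1.3, 28.9 ± 3.98 and 44.8 ± 4.58 CPM in b6j (SD, n = 6). It rose by 0.85 ± 0.08 in ob at 0.5 mg/kg (adjusted p = 4.62e-09) and by 0.40 ± 0.09 in b6j (adjusted p = 0.0163), a dose at which none of the 6 members was called in b6j. Pgm2, which encodes a phosphopentomutase, rose by 0.75 ± 0.12 in ob and 0.63 ± 0.12 in b6j at 2 mg/kg. Tigar, whose product lowers fructose 2,6-bisphosphate, rose by 0.48 ± 0.10 in ob, and Shpk, which encodes sedoheptulokinase, fell by 0.34 ± 0.07 in both genotypes (-0.34). H6pd, which encodes a hexose-6-phosphate dehydrogenase of the endoplasmic reticulum, rose by 0.31 ± 0.08 in ob and 0.40 ± 0.08 in b6j.

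Other sources of NADPH and genes linked to them, not all of which make NADPH, moved in both directions in ob at 2 mg/kg. Of these 13 genes 5 were higher and 6 lower, with a median of -0.32. In b6j 2 were higher and 1 lower, with a median of -0.01, and 4 were lower without replicate 5 of ob at 2 mg/kg. The rises were led by mitochondrial folate enzymes. Aldh1l2, whose product makes NADPH from formyl-tetrahydrofolate in mitochondria, rose by 2.81 ± 0.25 in ob and 1.18 ± 0.24 in b6j, and these responses differed by 1.63 ± 0.33 (adjusted p = 0.00573). Mthfd1l rose by 2.11 ± 0.22 in ob and 1.48 ± 0.22 in b6j. Its responses differed by 0.62 ± 0.31 (adjusted p = 0.298), and by 0.28 without replicate 5 of ob at 2 mg/kg. Mthfd2 rose by 1.38 ± 0.29 in ob, and in b6j by 0.94 ± 0.29 from 0.5 to 2 mg/kg (adjusted p = 0.0202). The b6j controls were spread for Mthfd2, at 8.47 ± 8.67 CPM (SD). Its responses at 2 mg/kg differed by 0.69 ± 0.41 (adjusted p = 0.386), and by -0.08 to 0.83 with 1 library left out. Me3, the mitochondrial relative of Me1, fell by 0.59 ± 0.11 in ob (-0.59), and Aldh1l1, the cytosolic relative of Aldh1l2, fell by 0.37 ± 0.10 in b6j (-0.37). Aldh1l1 averaged 567 ± 55.5 CPM in ob controls and 449 ± 91.3 CPM in ob at 2 mg/kg (SD). Its responses differed by 0.03 ± 0.15 (adjusted p = 0.944). Nnt, the mitochondrial transhydrogenase that is disrupted in C57BL/6J mice, had 5 to 43 reads per library, and no change in it was called.

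Enzymes that spend NADPH included rises in both genotypes. Of 16 tested, 7 rose and 5 fell in ob at 2 mg/kg (median 0.20), and 7 rose and 6 fell in b6j (median -0.08). With 0.5 mg/kg 6 rose and 0 fell in ob, and 0 were called in b6j (2 at an unadjusted p below 0.05 in edgeR; 0 called by DESeq2 and 1 by limma-voom). At 2 mg/kg Cbr3 and Cbr1, which encode carbonyl reductases, rose by 4.25 ± 0.21 and 2.38 ± 0.14 in ob and by 4.91 ± 0.22 and 3.12 ± 0.14 in b6j. Txnrd1, which encodes cytosolic thioredoxin reductase, rose by 1.92 ± 0.14 in ob and 1.55 ± 0.14 in b6j. Blvrb, which encodes a biliverdin reductase, rose by 2.34 ± 0.24 in ob and 2.05 ± 0.24 in b6j. The Blvrb responses differed by 0.29 ± 0.32 (adjusted p = 0.688), and by -0.08 without replicate 5 of ob at 2 mg/kg.

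**Figure D4:**
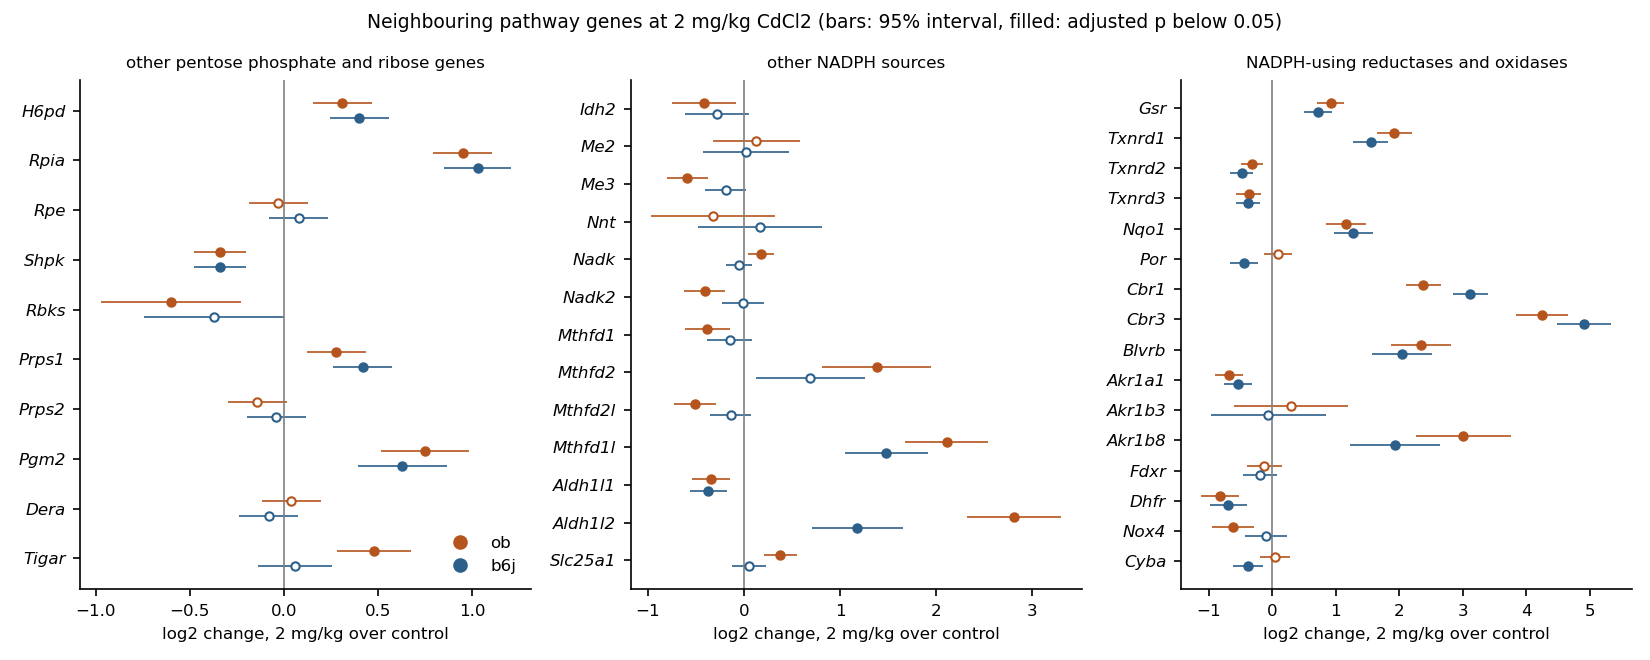
Log2 change at 2 mg/kg CdCl2 over control in ob (upper point of each pair) and b6j (lower point) for 3 lists of genes outside the 6, with 95% intervals; filled points passed an adjusted p of 0.05. Rpia rises in both genotypes in the left panel, Aldh1l2 and Mthfd1l stand out in the middle panel, and Cbr3 at 4.25 in ob and 4.91 in b6j is the farthest right in the right panel.

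Among 19 tested genes that hold NRF2 and its targets outside the members, 15 rose and 0 fell at 2 mg/kg in each genotype, with a median of 0.95 in ob and 0.72 in b6j. Gsr, Txnrd1 and Nqo1 stand both in this list and among the enzymes that spend NADPH. The lower dose had 11 rise and 0 fall in ob, and 2 rise and 0 fall in b6j. Hmox1, which encodes haem oxygenase 1, averaged 26.6 ± 3.73, 655 ± 81.3 and 1424 ± 390 CPM in ob at 0, 0.5 and 2 mg/kg, and 45.7 ± 12.9, 117 ± 12 and 1311 ± 333 CPM in b6j (SD, n = 6). Its response to 0.5 mg/kg was larger in ob by 3.27 ± 0.23 (adjusted p = 1.43e-11). Gclc, which encodes the catalytic subunit of the enzyme that starts glutathione synthesis, rose by 2.17 ± 0.19 in ob and 1.68 ± 0.19 in b6j at 2 mg/kg, and Ephx1, which encodes microsomal epoxide hydrolase, rose by 2.66 ± 0.18 in ob and 2.06 ± 0.17 in b6j.

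Genes of fatty acid synthesis, another use of NADPH, did not move together with CdCl2. In ob 1 of 15 rose and 3 fell at 2 mg/kg (median -0.14), and in b6j 4 rose and 2 fell (median 0.33). Without replicate 5 of ob at 2 mg/kg 7 rose and 3 fell in b6j. At 0.5 mg/kg 0 were called in either genotype, with 0 at an unadjusted p below 0.05 in edgeR and 0 called by DESeq2 or limma-voom. Between genotypes at 2 mg/kg 8 of 15 were lower and 1 was higher in ob (median -0.55); the higher one, Mid1ip1, was no longer called without replicate 5 (0.25; adjusted p = 0.153). In controls, where Me1 differed most, 1 was lower and 1 higher (median -0.11; 4 and 1 without that library), and at 0.5 mg/kg 4 were lower and 0 higher (median -0.29; 7 and 1). At 2 mg/kg Fads1, which encodes a desaturase, differed between ob and b6j by -0.97 ± 0.10. Srebf1, which encodes a lipogenic transcription factor, differed at that dose by -0.55 ± 0.09. Fads2 and Scd2, which encode other desaturases, differed at 2 mg/kg by -0.69 ± 0.15 and -0.52 ± 0.13.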

How the data were processed

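Per the labels' protocols, RNA of snap-frozen kidneys was taken with TRIzol. The submitters' processing notes name bcl2fastq, Trimmomatic, FastQC, STAR and GRCm38. Per the file headers, reads were counted with featureCounts 1.4.6-p2 against Ensembl 96 at its default settings, without strand and without the paired mode, and 75% to 79.5% of counts from 1 to 20 were even, so a read pair may count as 2. Each deposited file gives whole, unscaled read counts by gene for 1 library. A joined table of 36 columns was not used.

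All 55536 identifiers matched the GENCODE annotation. edgeR 4.0.16 (R 4.3.3) fitted 1 quasi-likelihood model to the 36 libraries, with filterByExpr (18180 genes), trimmed-mean scaling (factors 0.892 to 1.12) and Benjamini-Hochberg adjustment over those genes, in each of 11 comparisons. A gene was called at an adjusted p below 0.05. Errors of log2 changes are standard errors, intervals are 1.96 of them, and the script was tested on simulated data. CPM used scaled library sizes, and CPM per kb the exon length. Replicates of a group differed by more than counting noise (chi-square per degree of freedom of at least 6.62). Alternatives were other scalings and filters, DESeq2 1.42.0, limma-voom 3.58.1 with sample weights, compared groups alone, a replicate block and each library left out.

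Members and lists were chosen with earlier results of these data known, and 1 further member is not reported here. Named genes are the members, up to 4 called genes with the smallest p per list and comparison, Mt1, Lep and the 3 genes nearest to a member. H6pd, Rpia and Hmox1 levels, Nnt and paralog reads were added as context.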

Additional observations from a re-analysis of the deposited data

Results flagged for a closer look

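Of 36 sets of 6 libraries (6 genes in 6 groups), 5 had a highest or lowest library far from the others, and chance gives about 1 in 20. Replicate 5 of ob at 2 mg/kg accounted for 2 of them, with Taldo1 at 1039 CPM and Idh1 at 528 CPM. In ob at 0.5 mg/kg Taldo1 stood low at 273 CPM in replicate 4. Taldo1 stood high at 290 CPM in replicate 3 of the ob controls and low at 290 CPM in replicate 4 of the b6j controls.

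A difference of responses between ob and b6j was called for Me1 at 0.5 mg/kg, at 0.52 ± 0.12 (log2, ob minus b6j).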

How the results depend on the processing

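Called log2 changes of the 6 genes had the other sign in 0 of 1144 values under the alternatives. Of 66 results (6 genes, 11 comparisons), DESeq2 moved 3 across the threshold, library size alone 4, no filter 3, limma-voom 13 and the compared groups alone 12. Replicate numbers did not pair the libraries: deviations of same-numbered libraries had a median correlation of 0.00849 (range -0.184 to 0.242), and 7 of 36 libraries correlated best with their own number. With the replicate block the count of members called was 2 for the ob response to 0.5 mg/kg and 4 for ob over b6j at 2 mg/kg. It was the same as without it in the other 9 comparisons.

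Members called moved as follows, and the cause was not tested. With limma-voom and sample weights the ob response to 0.5 mg/kg had 5 members called, and the difference of responses 3 at 0.5 mg/kg and 2 at 2 mg/kg. Over all genes limma-voom called 2337, 805 and 1075 in these comparisons, against 779, 70 and 376 in the main fit. With the compared groups alone the members called there were 5, 3 and 0, and 194 of all genes were called for the difference at 2 mg/kg. For ob over b6j at 2 mg/kg that setting called 2 members, and 461 of all genes. DESeq2 called 2 for the difference at 2 mg/kg. With library size alone 4 were called for the b6j doses and 0 for the difference at either dose. With no filter 0 were called for the difference at 0.5 mg/kg, where 50 of all genes were called. Leaving out 1 library gave 2 to 4 for b6j at 2 mg/kg, 2 to 3 for its doses, 2 to 5 for ob at 0.5 mg/kg, 0 to 1 for the difference at 0.5 mg/kg and 0 to 2 at 2 mg/kg. The highest of the counts for the b6j and ob responses and the b6j doses came without replicate 5 of ob at 2 mg/kg, and that for the difference at 2 mg/kg came without it or without replicate 6 of that group. Without replicate 5, 26% of all genes were called between the control groups, 9.68% in ob at 0.5 mg/kg and 34.8% in b6j at 2 mg/kg.

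Library size alone moved the median of all genes to 0.161 between the control groups, 0.119 for the b6j response to 2 mg/kg, 0.119 and 0.124 for the dose contrasts of b6j and ob, and -0.11 for the ob response to 0.5 mg/kg, against 0.026, 0.017, 0.011, 0.021 and -0.01. Counts of all genes called ranged from 461 (compared groups alone) to 3501 for ob over b6j at 2 mg/kg around 2987, from 1889 to 5986 for the ob doses around 5406, and from 3880 to 7366 for ob at 2 mg/kg around 6976.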
